A study of Caenorhabditis elegans with 4 samples.

Results

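The regions described here are a pair of broad stretches of chromosome IV of Caenorhabditis elegans that are known to hold most piRNA loci of this worm, at 4.5 to 7 Mb (the left region) and 13.5 to 17.2 Mb (the right region) on the WormBase WS220 build. HTZ-1, the worm form of the histone variant H2A.Z, had been mapped in them by chromatin immunoprecipitation and sequencing (ChIP-seq). The members are the HTZ-1 peaks whose midpoint lies in either region, in each of 2 deposited peak lists. They number 182 of 4940 peaks in the larger list (109 left, 73 right) and 158 of 4283 in the smaller list (83 left, 75 right). The material was whole wild-type worms of strain N2 at the L3 larval stage, a mixed population of males and hermaphrodites grown at 20 °C. There were 2 libraries made with an affinity-purified rabbit polyclonal antibody against HTZ-1 and 2 libraries of input DNA, all from worms of that single description. All tissues were ground together, so germ-line and somatic nuclei cannot be told apart in any peak. The lists name no library, so whether they rest on shared or separate libraries is unknown. Each list was described on its own, neither was used as a replicate of the other, and the read depth behind each peak is unknown. Every interval below covers the counting of peaks alone.

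piRNAs are small RNAs bound by proteins of the Piwi family, PRG-1 in this worm, and are known for recognising transposons and other foreign transcripts in the germ line. In C. elegans most of them are transcribed from very many short separate units, each with its own small upstream motif, that are packed into these stretches of chromosome IV between and within ordinary genes. H2A.Z is deposited in place of ordinary H2A in some nucleosomes, and across eukaryotes it is best known from those flanking the start sites of genes. Of the 15363 genes typed as piRNA in RefSeq (assembly WBcel235), 14714 (95.8%) are assigned to chromosome IV. That assembly is not the build of the peaks, so no piRNA locus was set against a peak, and no genome of the WS220 build was used here, so no peak sequence is shown.

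The right region held few HTZ-1 peaks for its length, and the left region was somewhat sparser than the rest of the chromosome. In the larger list the right region held 19.7 peaks per Mb, the left region 43.6 and the remaining 11.3 Mb of chromosome IV 56.7. Values in the smaller list were 20.3, 33.2 and 48.5 peaks per Mb. The right region thus had 0.348 times the density of the rest of IV in the larger list (exact 95% interval 0.269 to 0.444, exact binomial adjusted p = 1.26e-21) and 0.418 times in the smaller list (0.324 to 0.532, adjusted p = 1.34e-14). For the left region the ratios were 0.769 (0.622 to 0.943, exact binomial adjusted p = 0.0104) and 0.684 (0.536 to 0.863, adjusted p = 0.00138). Set against each other, the right region had 0.453 times the density of the left region in the larger list (0.332 to 0.614, exact binomial adjusted p = 2.60e-07) and 0.611 times in the smaller list (0.441 to 0.845, adjusted p = 0.00241). All are exact binomial tests, two-sided, of peak numbers against length, adjusted over these 6 tests by Benjamini-Hochberg. The density comparisons with other stretches below were adjusted separately for each kind of comparison stretch, and not across them. These tests, and the Fisher tests below, take peaks as independent, as do the intervals given with them. Since peaks lie in groups, the p-values are too small and the intervals too narrow. When the lower-scoring 50% of each list was left out, the left region did not pass, with ratios of 0.907 (0.688 to 1.18) for the larger list and 0.774 (0.551 to 1.07) for the smaller one.

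Windows of 0.5 Mb show how peaks were spread along the regions. Its 7 full windows held, from left to right, 11, 8, 14, 8, 6, 9 and 13 peaks in the larger list and 13, 9, 12, 8, 8, 8 and 13 in the smaller list. The last 0.2 Mb of the region held 4 peaks in each list. Over the 22 full windows of the rest of IV the counts ran from 16 to 43 with a median of 27.5 in the larger list, and from 17 to 34 with a median of 26 in the smaller list. No window of the right region therefore reached the lowest window of the rest of IV in either list. The left region was uneven: its 5 windows held 28, 21, 11, 20 and 29 peaks in the larger list and 16, 14, 11, 18 and 24 in the smaller list. They overlapped the rest of IV, but IV 5.5 to 6 Mb lay below all 22 of those windows in both lists, and so did 4.5 to 5 Mb and 5 to 5.5 Mb in the smaller list. Densest within the left region was 6.5 to 7 Mb in both lists. In the right region 14.5 to 15 Mb was the densest window in the larger list, while 13.5 to 14 Mb and 16.5 to 17 Mb shared that place in the smaller list. The sparsest was 15.5 to 16 Mb in the larger list, and it shared the lowest count with 15 to 15.5 Mb and 16 to 16.5 Mb in the smaller list.

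**Figure D1:**
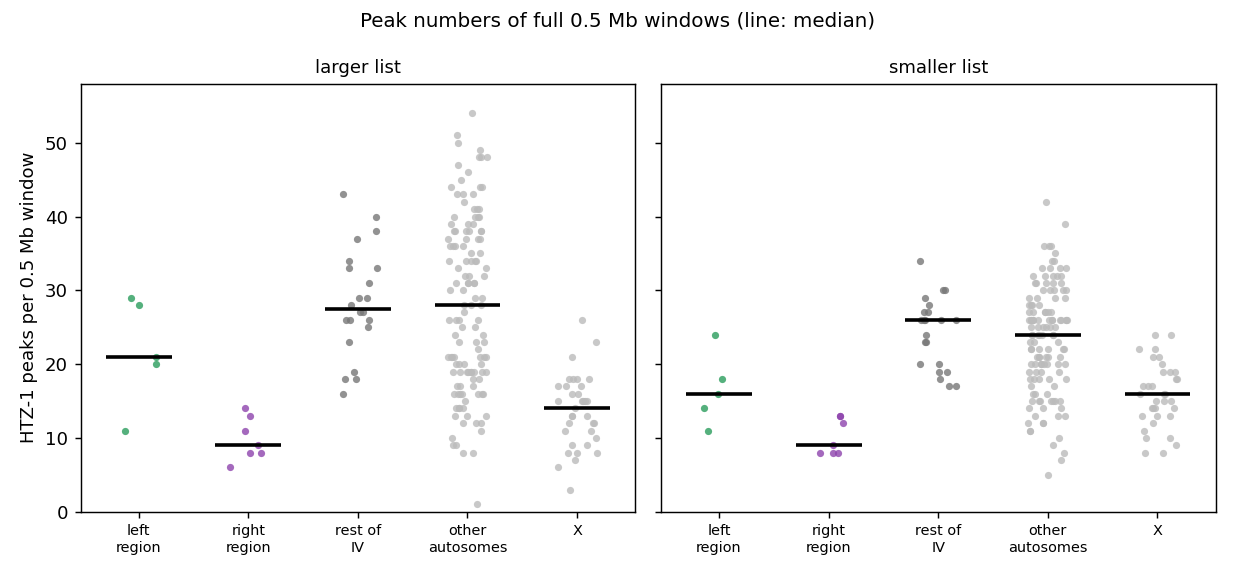
HTZ-1 peaks in each full 0.5 Mb window (points, vertical axis) of the left region, the right region, the rest of chromosome IV, the other autosomes and the X, with the median as a line, for each list. The 7 windows of the right region hold 6 to 14 larger-list peaks and 8 to 13 smaller-list peaks, below the lowest windows of the rest of IV at 16 and 17 peaks.

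Peak numbers fell across the left edge of the right region at the scale of 0.5 Mb, while in the adjoining 100 kb the lists differed in direction. The 0.5 Mb before it, 13 to 13.5 Mb, held 31 larger-list peaks and 24 smaller-list peaks, against 11 and 13 in the first 0.5 Mb inside. The last 100 kb before that edge held 5 and 3 peaks and the first 100 kb inside 4 and 6. Beyond its right edge the remaining 0.269 Mb up to the last peak of the chromosome held 13 and 12 peaks, or 48.4 and 44.6 per Mb. The last 100 kb inside that edge held 2 and 3 peaks and the first 100 kb outside 6 and 6. At the edge at 13.5 Mb the larger-list peaks nearest to it had midpoints 2.89 kb inside, with a score of 1174.7, and 0.0885 kb outside, with a score of 74.6. At the left edge of the left region, 4 to 4.5 Mb held 25 and 23 peaks and 4.5 to 5 Mb held 28 and 16, so the lists differed in direction there. Past its right edge, at 7 to 7.5 Mb, the counts were 33 and 30, against 29 and 24 in the window just inside.

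**Figure D2:**
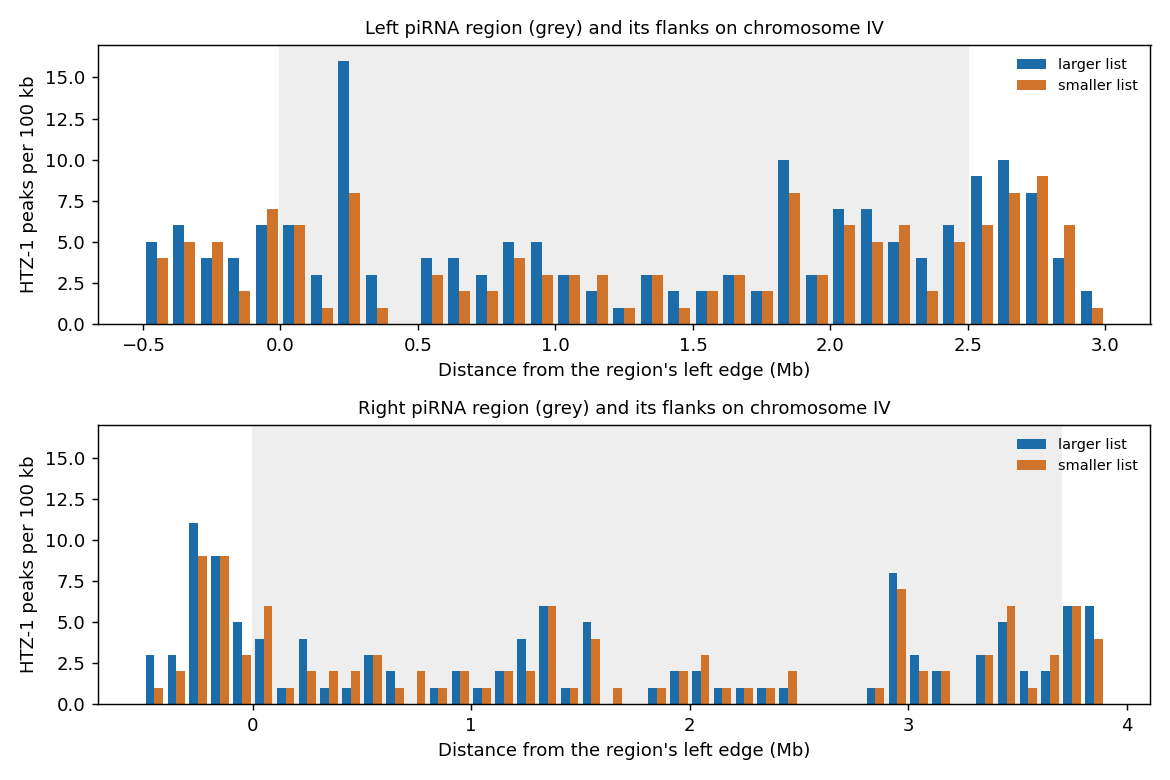
HTZ-1 peaks per 100 kb (vertical axis) by distance from the left edge of each region in Mb (horizontal axis), inside the region (grey) and in its flanks, for the larger and the smaller list. The left region peaks at 16 peaks in 100 kb in the larger list, while 7 of the 37 bins of the right region hold no larger-list peak.

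At a finer scale of 100 kb the right region was made of nearly empty stretches and a few filled ones. Of its 37 bins, 7 (18.9%) held no peak and 12 (32.4%) a single peak in the larger list, and 5 (13.5%) and 12 (32.4%) in the smaller list. In the rest of IV, 2 of 112 bins (1.79%) were empty in each list. The 5 bins empty in the smaller list were empty in the larger list too. Bins with 5 or more peaks made up 10.8% of the right region in each list, 36% (larger list) and 28% (smaller list) of the left region, and 61.6% and 56.3% of the rest of IV. The fullest bin of the right region, at 16.4 to 16.5 Mb, held 8 and 7 peaks. Counts per bin ranked alike in the lists, with a Spearman rho of 0.835 over the 25 bins of the left region and 0.833 over the 37 bins of the right region, which is a description, since the lists may share reads.

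Covered bases gave the same order as peak numbers. Peaks covered 5.64% of the right region by the larger list and 5.22% by the smaller one. The left region was covered to 14.8% and 10.6%, and the rest of IV to 17.8% and 14.6%. Coverage of the right region was thus 0.316 and 0.358 times that of the rest of IV, and coverage of the left region 0.830 and 0.729 times. By 0.5 Mb window it ran from 2.81 to 8.13% in the right region, 7.44 to 21.0% in the left region and 5.86 to 31.6% in the rest of IV in the larger list. Corresponding ranges in the smaller list were 3.48 to 7.58%, 6.94 to 16.4% and 6.40 to 26.4%. Unlike peak numbers, covered shares of the right region overlapped those of the rest of IV at the low end in both lists. Bases are not independent, so no test was made of coverage.

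The position of the regions on the chromosome was taken into account by comparison with the same relative spans of other autosomes, since worm autosomes have gene-dense centres and arms richer in repeats. Taking the 4 other autosomes together, the right region had 0.406 times their density in the larger list (exact 95% interval 0.314 to 0.517) and 0.462 times in the smaller list (0.358 to 0.588), with adjusted p of 9.00e-16 and 9.77e-12. The left region had 0.690 (0.558 to 0.848) and 0.677 (0.529 to 0.857) times their density, with adjusted p of 0.000326 and 0.000732 (exact binomial tests). Chromosome by chromosome, the comparison was not uniform. Against I, II and III the right region had ratios of 0.288 to 0.348 (larger list) and 0.334 to 0.417 (smaller list), each with an adjusted p of 2.52e-10 or less (exact binomial tests). Chromosome V differed, with 22.9 peaks per Mb in its matching span by the larger list and 25.6 by the smaller one. Against it the right region had ratios of 0.863 (0.630 to 1.18, exact binomial adjusted p = 0.687) and 0.792 (0.584 to 1.07, adjusted p = 0.497), so a difference was not detectable with these numbers of peaks. The left region was likewise not separated from the matching span of V, with ratios of 1.02 (0.780 to 1.32) and 0.901 (0.669 to 1.21). The comparisons with single autosomes were added after the data had been seen.

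The right region was sparser than the X chromosome and the arms of V, which were sparse themselves. The X held 27.3 larger-list peaks and 31.5 smaller-list peaks per Mb, and the right region had 0.724 (0.558 to 0.927, exact binomial adjusted p = 0.0112) and 0.643 (0.499 to 0.820, adjusted p = 0.000368) times that density. Against both arms of V together, at 31.9 and 31.6 peaks per Mb, it had ratios of 0.619 (0.477 to 0.795, exact binomial adjusted p = 0.000305) and 0.640 (0.495 to 0.820, adjusted p = 0.000453). At the opposite end of chromosome IV, the first 3.7 Mb held 47.0 and 45.4 peaks per Mb, and the ratios of the right region to it were 0.420 (0.315 to 0.554) and 0.446 (0.335 to 0.589). The left region was denser than the X and the V arms in the larger list, with ratios of 1.60 (1.29 to 1.97, exact binomial adjusted p = 0.000105) and 1.37 (1.10 to 1.69, adjusted p = 0.00587). In the smaller list these were 1.05 (0.827 to 1.33) and 1.05 (0.819 to 1.33), with adjusted p of 0.632 and 0.670 (exact binomial tests throughout). These comparisons too were added after the data had been seen. Of the 197 full 0.5 Mb windows of the genome, 19 held 10 or fewer larger-list peaks, and 4 of these lay in the right region, 9 on the X and 5 on V. With 12 or fewer smaller-list peaks there were 23 windows, of which 5 lay in the right region, 1 in the left region, 7 on the X and 9 on V. The right region had 7 full windows in all, the left region 5 and the X 35, so these counts are not shares of each stretch. Gene density, repeat content and input coverage were not used here, and their part in these densities was not tested.

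**Figure D3:**
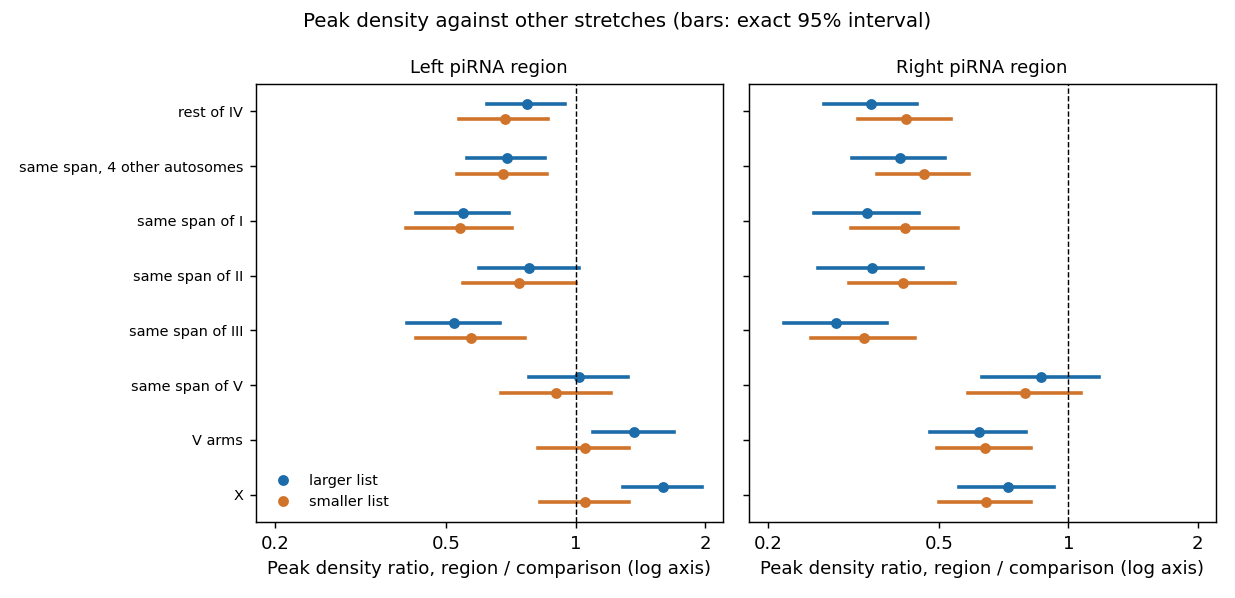
Ratio of HTZ-1 peak density in the left region and the right region to other stretches (horizontal log axis; points, with exact 95% intervals as bars), by comparison stretch (vertical axis) and list. The right region lies below 1 against every stretch shown, and its intervals reach 1 against the matching span of chromosome V, with ratios of 0.863 and 0.792.

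The right region was divided by long stretches without a peak. Neighbouring peaks of the right region had a median gap of 14.6 kb in the larger list (quartiles 2.77 and 73.0 kb, 72 gaps). In the rest of IV the median was 4.97 kb (1.12 and 17.7 kb, 636 gaps), and in the left region 4.17 kb (0.542 and 17.9 kb, 108 gaps). Medians in the smaller list were 17.3 kb, 9.33 kb and 10.9 kb in that order. Gaps of 50 kb or more made up 78.7% of the length of the right region by the larger list and 77.1% by the smaller one. They made up 57.1% and 54.2% of the left region and 31.8% and 27.8% of the rest of IV. Gaps of 100 kb or more numbered 13 and 15 in the right region, 2 and 2 in the left region and 6 and 6 in the rest of IV, which spans 11.3 Mb against the 3.7 Mb of the right region.

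The longest of these stretches was IV 15985006 to 16388563, a length of 403.6 kb with no peak in either list. The next longest gap of the right region was IV 15040432 to 15311095 in the larger list (270.7 kb), in which the smaller list placed the midpoint of 1 peak. After it came IV 14115852 to 14325349 (209.5 kb), with 3 smaller-list peaks. For the smaller list the gaps next in length were IV 16659929 to 16844700 (184.8 kb) and IV 15040437 to 15199167 (158.7 kb), both free of larger-list peaks. In the left region the longest gap was IV 4811504 to 5076184 in the larger list (264.7 kb), and the smaller list had almost the same gap, 264.6 kb long from 4811486 to 5076124. Next in length were gaps of 117.9 and 98.7 kb in the larger list and 111.1 and 99.3 kb in the smaller list. The other list placed 2 peaks in each of these except that of 98.7 kb, which held none. Of the 20 longest stretches of chromosome IV free of peaks in both lists, 13 lay within the right region, 2 within the left region and 5 in the rest. These parts of the chromosome span 3.7, 2.5 and 11.3 Mb. Long stretches go with a low peak density, so the count is not separate from it.

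Short gaps were fewer in the right region in the larger list. Gaps under 5 kb made up 24 of 72 there (95% Wilson interval of the share 23.5 to 44.8%), 59 of 108 in the left region (54.6%, 45.2 to 63.7%) and 319 of 636 in the rest of IV (50.2%, 46.3 to 54.0%), against 47.2% over the whole larger list. The right region differed from both by Fisher's exact test, two-sided, with adjusted p of 0.0259 for each over 6 tests. The share of short gaps depends on peak density, so this test is not separate from the density difference given above. In the smaller list the shares were 15 of 74 (20.3%, 12.7 to 30.8%), 26 of 82 (31.7%, 22.6 to 42.4%) and 178 of 544 (32.7%, 28.9 to 36.8%), against 30.0% over that whole list. There the differences of the right region did not pass, with adjusted p = 0.0646 against the rest of IV and 0.217 against the left region (Fisher's exact test). With the regions shrunk by 250 kb at each end the larger-list differences did not pass either (Fisher's exact adjusted p = 0.183 and 0.232), while they kept their direction at -15.4 and -14.3 percentage points.

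**Figure D4:**
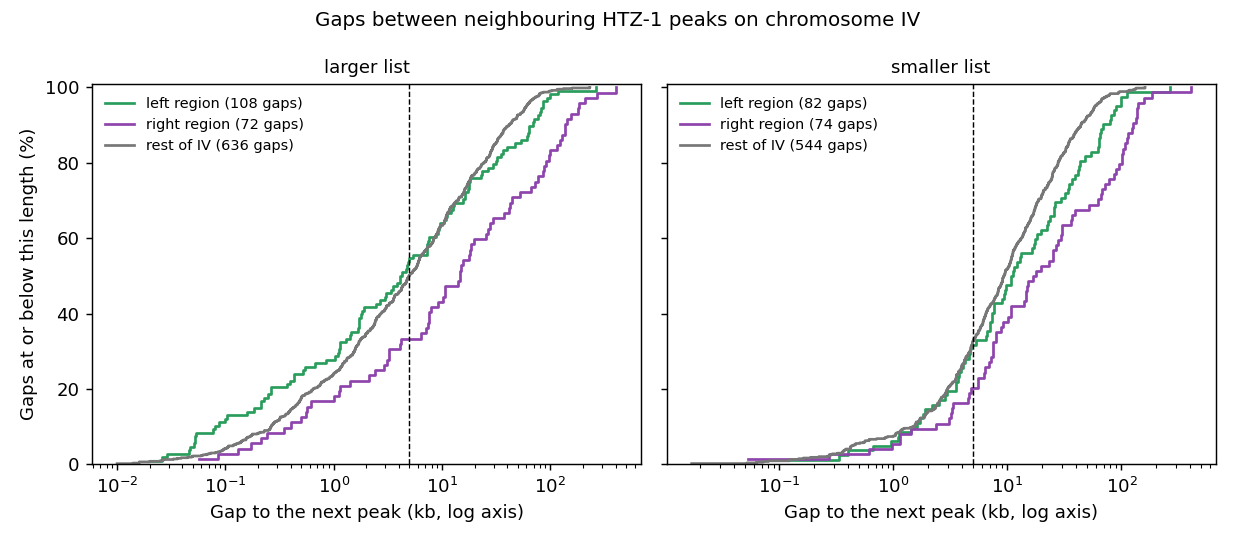
Share of gaps between neighbouring HTZ-1 peaks (vertical axis, %) at or below a given length (horizontal log axis, kb) in the left region, the right region and the rest of chromosome IV, for each list, with a dashed line at 5 kb. The curve of the right region lies to the right of the others, with a median gap of 14.6 kb in the larger list and 17.3 kb in the smaller list.

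Per Mb, islands of neighbouring peaks were fewer in the right region than in the left, and a larger share were single peaks. With peaks chained where the gap was under 5 kb, a description added after the data had been seen, the right region held 49 islands in the larger list, 34 of them (69.4%) a single peak. The left region held 50 islands, 25 of them single, and the rest of IV 320, of which 168 (52.5%) were single. The smaller list gave 60 islands in the right region (80% single), 57 in the left region (63.2%) and 369 in the rest of IV (65.0%). Islands per Mb numbered 13.2 in the right region, 20 in the left region and 28.4 in the rest of IV in the larger list. Smaller-list values were 16.2, 22.8 and 32.7 per Mb in that order. Chaining at 5 kb depends on peak density, so the share of single peaks is not separate from the density difference. Larger-list islands of 5 or more peaks numbered 0 in the right region, 4 in the left region with 29 of its 109 peaks, and 26 in the rest of IV. The largest island of the left region ran from IV 4736491 to 4811503 and packed 13 larger-list peaks, 56.1 kb of them, into 75.01 kb. It ended where the 264.7 kb gap began, so the largest island and the longest gap of the left region lay side by side. Of its 13 peaks, 5 were met by the smaller list, where the left region's largest island held 4 peaks. The right region's largest islands in the larger list held 4 peaks each, at IV 15025206 to 15040431 and IV 16411484 to 16425368, and the former ended at the edge of the 270.7 kb gap.

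A difference in the share of broad peaks was not detectable between the regions and the rest of IV. Peaks over 5 kb made up 13 of 73 in the right region of the larger list (17.8%, 95% Wilson interval 10.7 to 28.1%), 16 of 109 in the left region (14.7%, 9.24 to 22.5%) and 108 of 639 in the rest of IV (16.9%, 14.2 to 20.0%), against 14.3% of the whole list. Smaller-list peaks of this width made up 10 of 75 (13.3%, 7.41 to 22.8%), 14 of 83 (16.9%, 10.3 to 26.3%) and 86 of 547 (15.7%, 12.9 to 19.0%), against 11.7% of the whole list. None of the 6 comparisons passed (Fisher's exact test, two-sided, adjusted p = 0.869 for each), and the intervals leave room for differences of several percentage points either way. Per Mb, as a description, broad peaks were fewer in the right region, at 3.51 in the larger list against 6.40 in the left region and 9.58 in the rest of IV. Peaks over 10 kb numbered 2 in the left region (1.83%), 0 in the right region and 10 in the rest of IV (1.56%) in the larger list. At such shares the 73 peaks of the right region are too few to show a difference. The smaller list had none on the chromosome.

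Median widths of the right region were lower than those of the rest of IV in both lists, as a description. Medians of 2039 bp (right region) and 2435 bp (rest) came from the larger list, and of 1935 and 2450 bp from the smaller list. The left region had medians of 2697 and 2649 bp, above both. Quartiles overlapped widely, at 1682 and 3923 bp in the right region and 1722 and 3997.5 bp in the rest of IV for the larger list. Peaks up to 1.5 kb made up 23.3% and 30.7% of the right region in the larger and smaller list, and 18.3% and 17.2% of the rest of IV. Peaks of 3 to 5 kb made up 12.3% and 13.3% of the right region, 28.4% and 26.5% of the left region, and 20.5% and 22.5% of the rest of IV.

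Scores of the members covered nearly the whole range of the lists. The deposited score, whose scale is not stated, had a median of 746.5 in the right region, 688.9 in the left region and 573.9 in the rest of IV in the larger list. In the smaller list these medians were 466.5, 428.5 and 347.4. Scores ran from 53.3 to 3160.7 in the right region of the larger list, with quartiles of 213.8 and 1544.4. Peaks at exactly 3100, a value that many peaks share, made up 11.5% of the whole larger list. They made up 9 of 73 (12.3%) in the right region, 19 of 109 (17.4%) in the left region and 83 of 639 (13.0%) in the rest of IV. In the smaller list 2 of 75 (2.67%), 0 of 83 and 11 of 547 (2.01%) had it in that order, against 1.89% of that whole list. Score and width ranked together in the larger list, with a Spearman rho of 0.798 in the right region and 0.783 in the left region. For the smaller list rho was 0.587 and 0.167, and the left region stood below the 0.435 of the rest of IV.

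**Figure D5:**
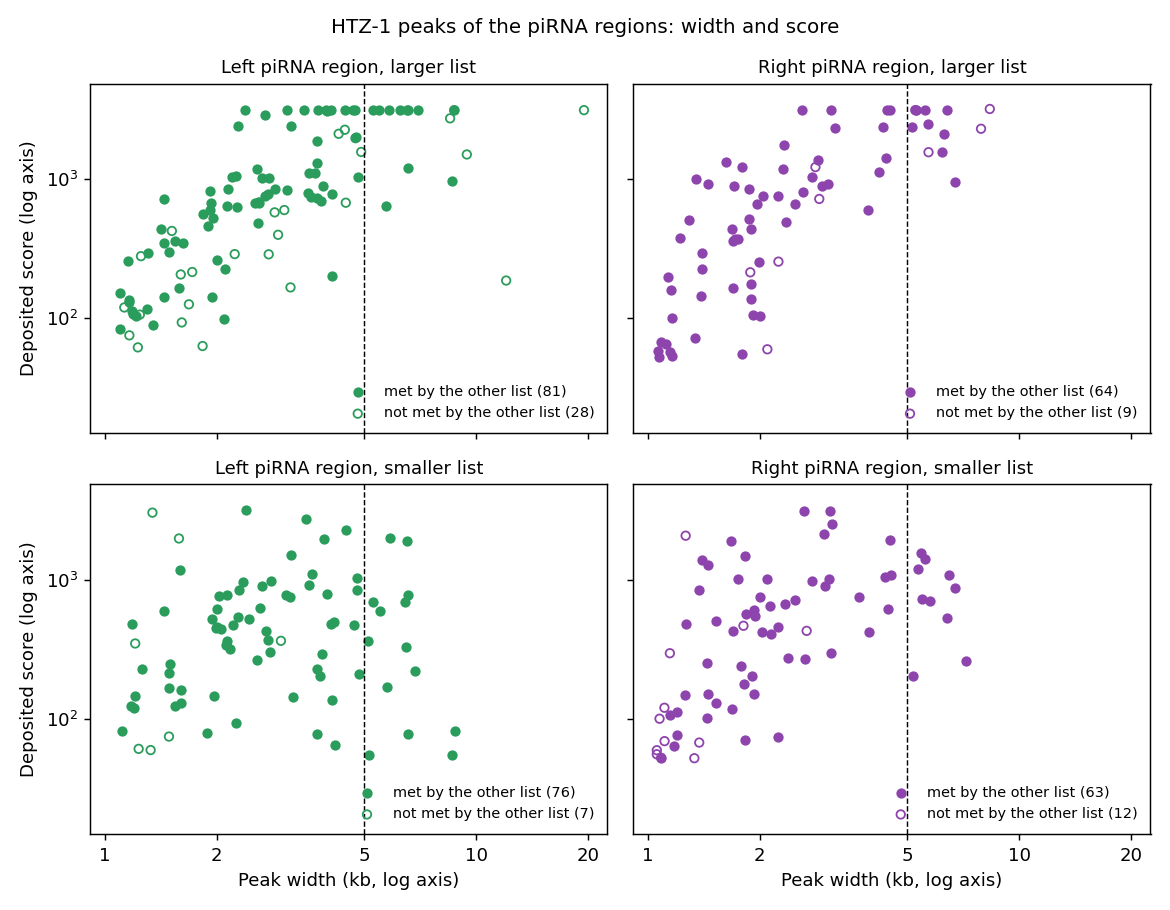
Deposited score (vertical log axis) against width in kb (horizontal log axis) of each HTZ-1 peak of the left region and the right region in each list, filled where the other list has an overlapping peak, with a dashed line at 5 kb. In the larger list score rises with width in both regions (rho 0.783 and 0.798), while the broad peaks of the left region in the smaller list include low scores.

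The lists agreed on most members. Of the larger-list peaks, 64 of 73 in the right region (87.7%, 95% Wilson interval 78.2 to 93.4%) and 81 of 109 in the left region (74.3%, 65.4 to 81.6%) overlapped a smaller-list peak, against 76.2% of the whole list. In the rest of IV 75.3% did (71.8 to 78.5%). Of the smaller-list peaks, 63 of 75 (84.0%, 74.1 to 90.6%) and 76 of 83 (91.6%, 83.6 to 95.9%) overlapped a larger-list peak, against 86.1% of that whole list. None of the 6 comparisons passed (Fisher's exact test, adjusted p from 0.114 to 0.812). In an alternative setting, peaks up to 5 kb, the larger list had 55 of 60 met in the right region (91.7%). This was above the rest of IV (77.0%) and the left region (75.3%), with an adjusted p of 0.0316 for each (Fisher's exact test). The smaller list went the other way under this filter, with 53 of 65 met in the right region (81.5%), 83.5% in the rest of IV and 89.9% in the left region. Those differences did not pass (Fisher's exact adjusted p = 0.723 and 0.326). In bases, the lists shared 168.0 of 233.6 kb covered by either in the right region, a Jaccard index of 0.719, against 0.628 in the left region and 0.642 in the rest of IV. Scores of peaks paired singly between lists ranked alike more closely in the right region (rho 0.840, 62 pairs) than in the left region (0.422, 72 pairs) or the rest of IV (0.655, 451 pairs). These correlations are descriptions over peaks of lists that may share reads.

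The highest-scoring larger-list peak of the right region, IV 14766777 to 14775112, was also its widest, at 8.34 kb with a score of 3160.7, and the smaller list had no peak there. Next were 9 peaks tied at 3100. The first by position was IV 13784468 to 13789717 (5.25 kb), with no smaller-list counterpart, followed by IV 14463125 to 14465719 (2.60 kb). This 2.60 kb peak had a counterpart at IV 14463101 to 14465734, also at 3100. That counterpart shared the highest score of the smaller list there with IV 16400722 to 16403823 (3.10 kb). The latter lay just past the 403.6 kb gap, and its larger-list counterpart scored 3100. Next in the smaller list was IV 15645903 to 15649042 (3.14 kb, score 2505.9), whose counterpart scored 1365.2. The other wide members of the right region were IV 14107957 to 14115851 (7.90 kb, score 2280.5), not met by the smaller list, and IV 13506457 to 13513167 (6.71 kb, score 949.8), met there by a peak of 6.73 kb that scored 864.1. In the smaller list the widest was IV 14078506 to 14085705 (7.20 kb, score 261.0), whose counterpart scored 1544.4, and IV 16862709 to 16869186 (6.48 kb, score 1072.8) had a counterpart that scored 3100.

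In the left region many larger-list peaks shared the top score. The widest larger-list member was IV 4748952 to 4768471, at 19.5 kb with a score of 3100, inside the island of 13 peaks. It was followed by IV 5173185 to 5185230 (12.0 kb, score 186.7) and IV 6414712 to 6424150 (9.44 kb, score 1492.6), and the smaller list met none of these 3. Its 19 members at 3100, of which 10 were over 5 kb wide, tied for the highest score. The first of them by position were IV 4652926 to 4661652 (8.73 kb, not met), IV 4710037 to 4716570 (6.53 kb) and IV 4717982 to 4724207 (6.23 kb). The 6.53 kb peak had a counterpart that scored 779.2. The 6.23 kb peak met the smaller list only at its right end, where the peak IV 4724183 to 4729342 (score 55.9) began. That peak lay mostly over the next larger-list peaks, so its score belongs to another site. The top of the smaller list was IV 5648199 to 5650602 (2.40 kb, score 3137.6), with a larger-list counterpart at 3100. It was followed by IV 5690624 to 5691966 (1.34 kb, score 3014.1), which the larger list did not meet, and IV 6902882 to 6906358 (3.48 kb, score 2716.3), with a counterpart at 3100. The widest smaller-list members scored low there and higher in the other list: IV 5540761 to 5549510 (8.75 kb) scored 82.7 against 3100, IV 6521439 to 6530055 (8.62 kb) scored 55.1 against 958.1, and IV 5942721 to 5949565 (6.85 kb) scored 222.4 against 3100. With no stated scale, a difference between such scores is not read as a change in HTZ-1.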

How the data were processed

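Both lists deposited by the authors are GFF3 files whose headers name WormBase WS220, and each peak has a start, an end and a score. The deposited score has no stated scale, and was used to describe, rank and filter peaks within a list. The submitters' processing notes name BWA. How peaks were called, whether input entered and whether libraries were pooled is not stated in those notes, the labels or the headers. Comment lines of a coordinate liftover mark 3 members as changed, 2 in the larger and 1 in the smaller list, all in the left region. Chromosome IV was taken to run to its last peak end (17.5 Mb). A peak belonged to a region by its midpoint. A gap was the number of bases between neighbouring peaks of a region. Densities were compared by exact binomial tests and shares by Fisher's exact test, in Python 3.11.15 with SciPy 1.17.1. Functions were tested on simulated peaks. Alternatives changed region edges, peak filters, limits and comparison stretches. Sites were named by a rule: in each region and list, the 3 highest scores, the 3 widest peaks, the 3 longest gaps and the densest and sparsest windows. The regions, lists and tests were chosen with earlier results of these data known.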

Additional observations from a re-analysis of the deposited data

How the results depend on the processing

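The lower density of the right region than the rest of IV held its direction and passed under every alternative tried except the matching span of chromosome V, where the ratios were 0.863 and 0.792 (larger, then smaller list). Its ratio to the left region in the smaller list was 0.661 with the lower-scoring 50% of peaks left out (adjusted p = 0.0781, exact binomial test). The density of the left region depended more on the choices. It no longer passed with regions widened by 250 kb (0.866, larger list), among the higher scores (0.907 and 0.774), for its arm part against the arms of IV (0.832, larger list), for its centre part against the centre (0.749, smaller list), or against the matching spans of II (0.780 and 0.740) and V (0.901, smaller list). It lay above 1 against the matching span of V (1.02, larger list), the X (1.60 and 1.05) and the V arms (1.37 and 1.05), which are themselves sparse. Differences in the share of broad peaks, none of which passed, changed sign in the larger list with a limit of 3 kb, to 5.72 points for the left region and -7.27 for the right region against the rest, and -12.98 between the regions. Among the higher scores of the smaller list they were -6.51 for the left region and 4.85 between the regions. Short-gap differences of the right region in the larger list no longer passed with a limit of 2 kb (-12.5 points against the rest, -19.4 against the left region) or with shrunken regions (-15.4 and -14.3). The left region against the rest changed sign there, to 0.847 points with 2 kb in the smaller list and -1.03 with shrunken regions in the larger list. The share met by the other list changed sign for the left region among the higher scores of the smaller list (-2.09 points), and passed for the right region among larger-list peaks up to 5 kb (14.6 points against the rest, 16.4 against the left region). The cause of these shifts was not tested. Coverage among the higher scores of the smaller list was 5.79% in the left region and 8.08% in the rest of IV, and leaving out peaks can only lower it. The other 118 of 150 recomputed values kept their direction and their side of the threshold or, for coverage, their level. A coverage level counted as kept where it moved by less than the spread between windows. Ratios of coverage between stretches were not recomputed. No paired analysis was possible because the lists hold no values per library, and for the same reason no library could be left out.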

Other observations

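Peaks found in a single list differed between the lists in the right region, as values with no test. The 9 larger-list members that the smaller list did not meet had a median score of 1212.0 and a median width of 2895 bp, against 705.4 and 1945 bp for the 64 that it met. Some of the 9 were direct neighbours (those starting at IV 13778595 and 13784468, and at 14763751 and 14766777), so they mark fewer separate sites. The 12 smaller-list members that the larger list did not meet had a median score of 85.2 and a median width of 1127.5 bp, against 568.5 and 2130 bp for the 63 met. In the rest of IV the unmet peaks had median scores of 246.7 (larger list) and 99.2 (smaller list), below those of the met peaks at 753.5 and 400.0. The left region likewise had lower median scores for unmet peaks, 342.9 and 348.5, than for met peaks, 777.0 and 444.5. Of the broad members, over 5 kb, 4 of 13 in the right region and 5 of 16 in the left region of the larger list were unmet, near the 36 of 108 in the rest of IV. In the smaller list all 10 and all 14 broad members were met, as were 82 of 86 broad peaks in the rest of IV.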
